A study of Homo sapiens with 12 samples.

Results

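Acetylcholine acts on SH-SY5Y cells, a human neuroblastoma line of sympathetic origin, through nicotinic and muscarinic receptors. This section describes 8 genes: the nicotinic subunit genes CHRNA3, CHRNA5, CHRNA7, CHRNB2 and CHRNB4, the muscarinic receptor genes CHRM2 and CHRM3, and ACHE, which encodes the acetylcholine-degrading enzyme acetylcholinesterase. They were taken by name, and each was read from every probe set that the array annotation gives to exactly 1 gene symbol. Such a probe set existed for 7 of the 8, with 17 probe sets in all, out of 19775 genes with one on the array. The 12 arrays fall into 4 groups of 3: oligomeric amyloid-β (Aβ) at 6 h, its 6 h controls, fibrillar Aβ at 24 h, and its 24 h controls. Oligomers were given at 6 h alone and fibrils at 24 h alone, so form and hours cannot be told apart, and what the hours time (the peptide's aggregation or the cells' contact with it) is not stated. The labels name neither a peptide dose nor what the controls received. Replicates are not said to come from separate cultures, so p-values here reflect the spread among these samples, possibly a technical one.

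Nicotinic receptors are cation channels assembled from several subunits around a central pore. In autonomic ganglia and cells derived from them, CHRNA3 and CHRNB4 subunits, with CHRNA5 as an accessory subunit, form the main channel, CHRNB2 can take the place of CHRNB4, and CHRNA7 forms channels of its own kind with a high calcium permeability. Binding of Aβ to CHRNA7 channels has been reported, which is the reason to read this family in Aβ-treated cells. Muscarinic receptors are slower and work through G proteins: CHRM3 couples to phospholipase C and calcium release, CHRM2 to the inhibition of adenylyl cyclase.

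CHRNA5, CHRNA3 and CHRNB4 lie beside each other on chromosome 15 in this order in the RefSeq annotation, and the stretches annotated to CHRNA5 and CHRNA3 overlap. The promoter windows of CHRNA3 and CHRNB4 are shown as those of neighbours, of which only CHRNA3 could be tested. CHRNA3 differed between the times at its brightest probe set. CHRNB4 lay just under the filter because of a low value in oligomeric replicate 3, so no difference between the neighbours is read from this. Both come from RefSeq (GRCh38.p14) and run from 250 bases before to 50 bases after the annotated start, 5′ to 3′ on the minus strand. CHRNA3 is at chr15:78620947-78621246 and CHRNB4 at chr15:78641161-78641460. Capitals mark GC boxes, the letters GGGCGG on either strand, a motif bound by Sp1 and Sp3.
CHRNA3: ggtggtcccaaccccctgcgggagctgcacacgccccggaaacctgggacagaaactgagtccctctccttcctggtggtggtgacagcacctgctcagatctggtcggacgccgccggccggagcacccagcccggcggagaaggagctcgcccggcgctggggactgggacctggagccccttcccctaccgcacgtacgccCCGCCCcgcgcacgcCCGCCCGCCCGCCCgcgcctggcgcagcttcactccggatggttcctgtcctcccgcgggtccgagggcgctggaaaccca
CHRNB4: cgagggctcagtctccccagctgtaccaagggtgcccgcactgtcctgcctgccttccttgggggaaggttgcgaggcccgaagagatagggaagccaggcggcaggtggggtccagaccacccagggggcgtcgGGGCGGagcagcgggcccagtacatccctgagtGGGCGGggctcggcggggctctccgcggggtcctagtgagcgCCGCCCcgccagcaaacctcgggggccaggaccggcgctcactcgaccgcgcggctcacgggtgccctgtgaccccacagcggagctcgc
The CHRNA3 window held 4 GC boxes, 3 of them overlapping in a run, and the CHRNB4 window held 3. Of the 8 genes, 7 had a window in the table, CHRNA5 being the exception, and 5 of these had a GC box in at least 1 of their windows, while the windows of CHRNB2 and CHRM3 had none. Counted by window, a GC box stood in 9 of the 12 windows of these genes, some of which overlap, and in 45% of the 35116 windows of all genes. An E-box (CANNTG, which reads the same on both strands; no E-box overlapped a GC box in these windows), which proneural factors bind, stood in 1 place in the CHRNA3 window and 2 in the CHRNB4 window, and in 68.7% of all windows.

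The values are log2 signals, scaled by the authors to a common array mean. A gene was tested where the mean of its brightest probe set over the 12 arrays was at or above log2 3.78, the median of all probe sets, which left 11774 genes. Among the 8 genes 4 passed: CHRNA3, CHRNA5, CHRNB2 and CHRM3, and for each of these the mean of every group lay above that level. CHRNB4, CHRM2 and ACHE had low signals and were not tested in the main analysis. CHRNB2 was the lowest gene inside the limit, with a mean of 5.47. CHRNB4 fell just outside it with 3.75, because of a low value in oligomeric replicate 3. Of the 17 probe sets 10 were kept.

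**Figure D1:**
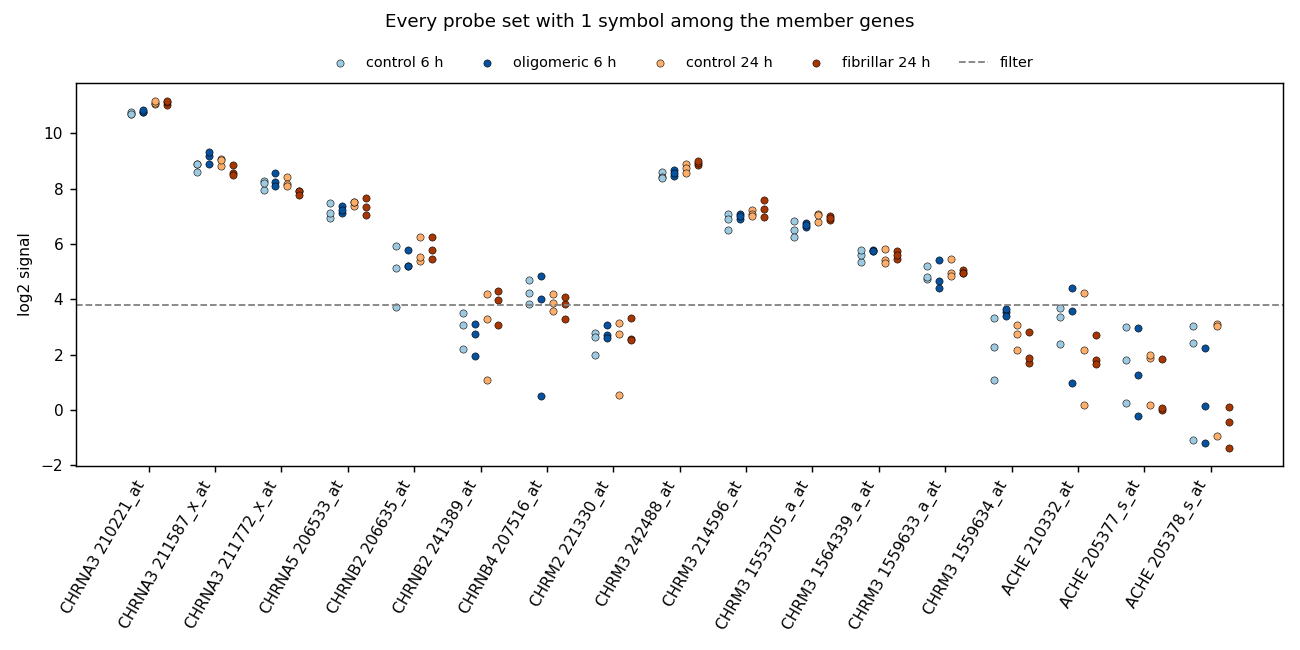
Log2 signal of the 17 probe sets with 1 symbol (x axis, gene and probe set), 1 point for each of the 12 arrays, coloured by group. The dashed line is the filter at log2 3.78. The 3 ACHE probe sets and those of CHRM2 and CHRNB4 have means under the line, where single arrays of 1 group differ by up to several log2 units.

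With limma and Benjamini-Hochberg adjustment over all 11774 genes, 0 of the 4 tested members passed an adjusted p of 0.05 with oligomeric Aβ, where 0% of all genes did, and 0 of the 4 had an unadjusted p under 0.05, against 2.78% of all genes. With fibrillar Aβ again 0 of the 4 passed, against 1.19% of all genes, and 0 had an unadjusted p under 0.05, against 14.2%. The difference between both responses, each taken against its own controls, was called for 0 of the 4 and for 0.0425% of all genes, and at an unadjusted p under 0.05 for 0 of the 4 and for 8.53%. Between the controls of 24 h and 6 h, 1 of the 4 passed, CHRNA3, with the higher level at 24 h. There 11.7% of all genes passed, 3.76% with the higher level at 24 h and 7.92% with the lower (443 and 932 genes; 140 and 1769 after centring each array on its median). At an unadjusted p under 0.05 it was 2 of the 4, CHRNA3 and CHRM3, against 26.6%. At their brightest probe sets 0 of the 4 had treated and control arrays that did not overlap, which 7.36% of all genes had with oligomers and 19.7% with fibrils. Between the controls CHRNA3 alone of the 4 did not overlap, against 32.6%. The median change of the 4 members was 0.08 with oligomers, 0.06 with fibrils and 0.34 between the controls, beside −0.0046, −0.00053 and −0.02 over all genes. The oligomer and the control comparison share the 6 h controls, and the fibril and the control comparison share the 24 h controls.

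CHRNA3, the α subunit of the ganglionic channel, was read at its brightest probe set. Its log2 signals were 10.72, 10.76 and 10.69 in the 6 h controls and 10.77, 10.76 and 10.86 with oligomers. At 24 h they were 11.07, 11.10 and 11.16 in the controls and 11.04, 11.15 and 11.19 with fibrils. Every array of 24 h lay above every array of 6 h, which was so, with 24 h higher, for 4.11% of all genes tested. Within each time the treated and control arrays overlapped. At 6 h they did so barely, with 10.7622 in oligomeric replicate 2 and 10.7623 in control replicate 2. The group means ordered as 6 h control (10.72 ± 0.04, SD, n = 3), oligomeric (10.80 ± 0.05), 24 h control (11.11 ± 0.05) and fibrillar (11.13 ± 0.08). Neighbours of the same time were not called as different.

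Between the controls CHRNA3 rose by 0.39 (SE 0.06, 95% interval 0.25 to 0.52, limma adjusted p = 0.00111), a 1.31-fold higher signal at 24 h. In bulk RNA, more cells that express a gene and more RNA per cell cannot be told apart. With fibrils its change was 0.02 (SE 0.06, interval −0.11 to 0.15, adjusted p = 0.93), and with oligomers 0.07 (SE 0.06, interval −0.06 to 0.21). The time difference was called in each of the 6 fits that left out a control array, with adjusted p-values from 0.00391 to 0.00867. Array measures moved with it. The 3′ minus 5′ signal of GAPDH, a gauge of RNA integrity, was 0.77 to 0.83 in the 6 h controls and 0.47 to 0.52 in the 24 h controls, and that of ACTB 2.82 to 3.25 and 2.34 to 2.65. The signal of the small-subunit ribosomal RNA was 9.31 to 10.3 and 11.4 to 11.8. Their part in the difference was not tested beyond the following fit. The control times did not overlap in either gauge, so a fit that adjusts for the gauges can hardly part them from time, here and for the genes below. After adjustment for both 3′ to 5′ gauges the CHRNA3 difference was 0.36 (adjusted p = 0.0483). With arrays centred on their medians it was 0.26 (adjusted p = 0.0389); that centring moved the median change of all genes in this comparison, a shift of −0.13.

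**Figure D2:**
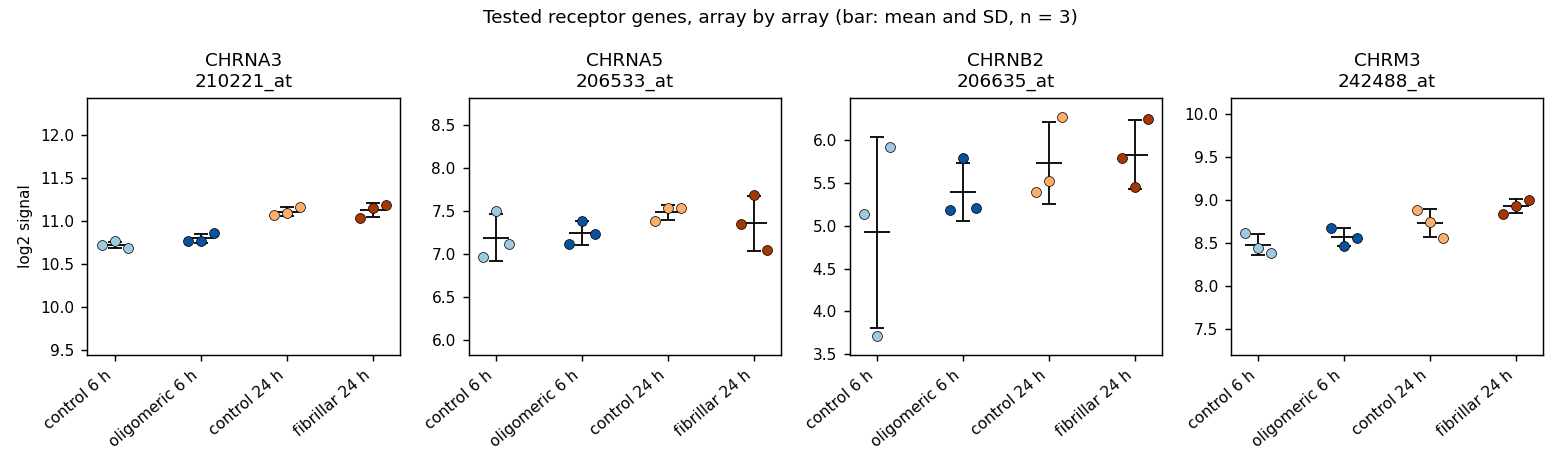
Log2 signal at the brightest probe set of CHRNA3, CHRNA5, CHRNB2 and CHRM3 (panels), with 1 point per array in each of the 4 groups; bars give the mean and SD, and every y axis spans the same 3 log2 units. For CHRNA3 all arrays of 24 h (11.04 to 11.19) lie above all arrays of 6 h (10.69 to 10.86), and for the other 3 genes the ranges of the times overlap.

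The other probe sets of CHRNA3, both of a class whose probes the array maker lists as possibly matching other transcripts (suffix x), gave other values. In the brighter of the x probe sets the signals were 8.61, 8.89 and 8.90 in the 6 h controls, 8.88, 9.20 and 9.31 with oligomers, 9.07, 8.81 and 9.02 in the 24 h controls, and 8.55, 8.84 and 8.48 with fibrils. In the dimmer x probe set they were 7.97, 8.26 and 8.19, then 8.24, 8.11 and 8.55, then 8.44, 8.16 and 8.09, and 7.92, 7.91 and 7.76 in the same order of groups. The fibrillar arrays held the lowest mean in both, and in the dimmer all 3 lay below all 24 h controls. In that comparison 19.2% of all kept probe sets did not overlap, and 8.01% did not with oligomers, where both x probe sets overlapped their controls.

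When every kept probe set was tested (22123), the changes with fibrils were −0.34 (SE 0.12, interval −0.60 to −0.08, adjusted p = 0.213) for the brighter and −0.37 (SE 0.12, interval −0.63 to −0.10, adjusted p = 0.188) for the dimmer. Neither passed, and 0.57% of probe sets did. With oligomers their changes were 0.33 (SE 0.12, interval 0.07 to 0.59) and 0.16 (SE 0.12), and neither passed, where 0% of probe sets did. The fibrillar less the oligomeric response was −0.67 and −0.53 (adjusted p = 0.228 and 0.346), with 0.0136% of probe sets called. Between the controls they were 0.17 and 0.09, against 0.39 for the brightest, and did not pass (adjusted p = 0.429 and 0.709), with 9.6% called. Over the 12 arrays the x probe sets had a Pearson r of 0.80 with each other and of −0.25 and −0.37 with the brightest, as a description over arrays that share their groups. With oligomers and between the controls all 3 changes had the same sign, and with fibrils the brightest had 0.02.

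Taken within each array, the brightest signal less the mean of both x probe sets was 2.31, 2.61 and 2.61 in the 24 h controls and 2.80, 2.78 and 3.07 with fibrils. These groups did not overlap, and differed by 0.37 (two-sided exact permutation p = 0.1, which no split of 3 against 3 can go below; adjusted over 3 comparisons, p = 0.3). At 6 h it was 2.43, 2.19 and 2.14 in the controls and 2.20, 2.11 and 1.93 with oligomers, a difference of −0.17 (exact permutation p = 0.3, adjusted p = 0.3). Between the controls it was higher at 24 h by 0.26 (exact permutation p = 0.2, adjusted p = 0.3). This contrast was formed after the probe sets were seen to differ, and no outcome of it could have passed. The mean of all 3 probe sets did not pass between the controls (0.21, limma adjusted p = 0.125).

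**Figure D3:**
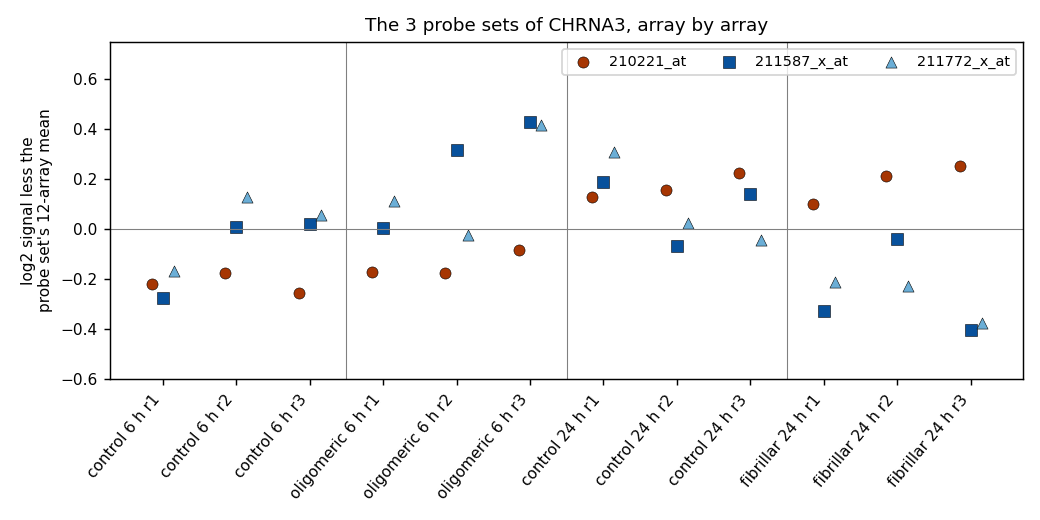
Log2 signal of the 3 CHRNA3 probe sets in each of the 12 arrays (x axis, grouped; r is the replicate), each less its own mean over the 12 arrays. Circles (the brightest) lie below 0 at 6 h and above 0 at 24 h, while the squares and triangles of the x probe sets lie below 0 in all 3 fibrillar arrays.

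CHRNA5, the accessory subunit, has 1 probe set. Its signals were 6.96, 7.50 and 7.11 in the 6 h controls, 7.11, 7.38 and 7.23 with oligomers, 7.38, 7.53 and 7.53 in the 24 h controls, and 7.35, 7.68 and 7.04 with fibrils. All groups overlapped their neighbours, and the means, from 7.19 in the 6 h controls through 7.24 with oligomers and 7.35 with fibrils to 7.48 in the 24 h controls, were not apart beyond their spread. Its changes were 0.05 (SE 0.16, 95% interval −0.28 to 0.39) with oligomers and −0.13 (SE 0.16, interval −0.46 to 0.21) with fibrils, and 0.29 (SE 0.16, limma adjusted p = 0.254) between the controls. That control difference was 0.18 without control 6 h replicate 1 and 0.45 without control 6 h replicate 2, and 0.16 with median centring. The direction of its oligomer change turned without oligomeric replicate 2 (−0.02) and without control 6 h replicate 1 (−0.06).

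CHRNA7 has no probe set of its own here. The only probe set annotated to it, with the suffix s, is given jointly to CHRNA7 and CHRFAM7A, a partial duplicate of the gene, so no level of CHRNA7 is stated. That shared probe set, which belongs to neither gene alone, read 5.24, 5.54 and 5.49 in the 6 h controls, 5.62, 5.52 and 4.90 with oligomers, 5.69, 5.52 and 5.80 in the 24 h controls, and 5.55, 5.60 and 5.76 with fibrils. The treated and control arrays of each time overlapped.

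CHRNB2 encodes a β subunit that pairs with α subunits in brain and ganglia. At its brightest probe set the signals were 5.13, 3.71 and 5.92 in the 6 h controls, 5.19, 5.78 and 5.21 with oligomers, 5.39, 5.53 and 6.27 in the 24 h controls, and 5.79, 5.45 and 6.25 with fibrils. The 6 h control replicate 2 stood lowest, and all groups overlapped. The order of means was 6 h control (4.92 ± 1.12, SD, n = 3), oligomeric (5.39 ± 0.34), 24 h control (5.73 ± 0.47) and fibrillar (5.83 ± 0.40), without neighbours apart beyond their spread. The change was 0.47 (SE 0.41, 95% interval −0.40 to 1.35) with oligomers, 0.10 (SE 0.41, interval −0.78 to 0.97) with fibrils and 0.81 (SE 0.41, limma adjusted p = 0.228) between the controls.

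These CHRNB2 intervals are wide enough to hold changes over 1.5-fold in either direction with fibrils. Single arrays moved the values. Without control 6 h replicate 2 the oligomer change was −0.13 and the control difference 0.20, and without control 6 h replicate 3 the control difference was 1.31 and passed (adjusted p = 0.0455). With fibrils the change ran from −0.11, without fibrillar replicate 3, to 0.37. Its other probe set had a mean of 3.04, under the filter, with signals from 1.07 to 4.31.

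CHRNB4, the β subunit of the ganglionic channel, lay just under the filter with a mean of 3.75. Its signals, from 1 probe set, were 3.83, 4.69 and 4.23 in the 6 h controls, 4.85, 4.03 and 0.50 with oligomers, 3.59, 4.19 and 3.88 in the 24 h controls, and 3.29, 3.82 and 4.09 with fibrils. The value of 0.50, in oligomeric replicate 3, was far below the other 11, and it alone brought the mean under the filter. Group means were 4.25 in the 6 h controls, 3.88 in the 24 h controls, 3.73 with fibrils and 3.13 with oligomers. The treated and control arrays overlapped at each time.

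**Figure D4:**
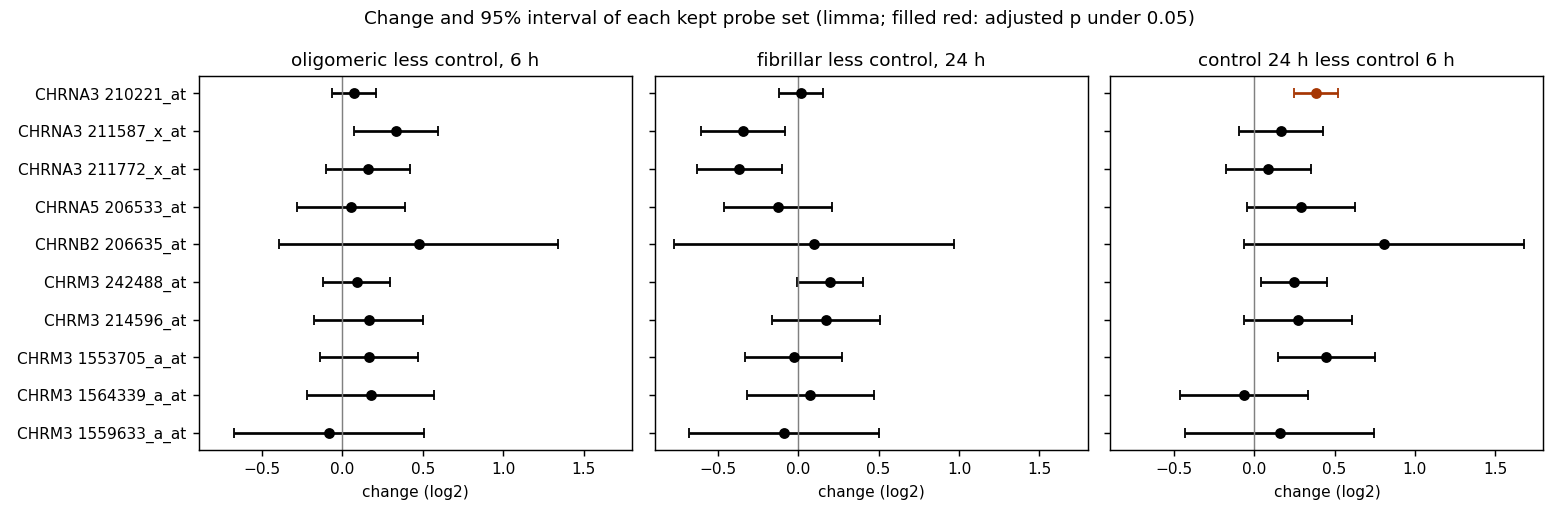
Change on the log2 scale (x axis) of the 10 kept probe sets with its 95% interval from limma, for oligomeric less control at 6 h, fibrillar less control at 24 h, and 24 h control less 6 h control. The only called change (red) is the 0.39 of CHRNA3 at its brightest probe set between the controls; the intervals of the CHRNA3 x probe sets lie below 0 with fibrils, with adjusted p-values of 0.213 and 0.188.

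CHRM3, the muscarinic receptor of the phospholipase C pathway, has 6 probe sets, 5 of them kept. At the brightest the signals were 8.62, 8.44 and 8.38 in the 6 h controls, 8.68, 8.47 and 8.56 with oligomers, 8.88, 8.74 and 8.56 in the 24 h controls, and 8.84, 8.93 and 9.004 with fibrils. The fibrillar arrays had the highest mean but overlapped their controls, as the oligomeric arrays did theirs. Group means ran from 8.48 ± 0.12 in the 6 h controls through 8.57 ± 0.11 (oligomeric) and 8.73 ± 0.16 (24 h control) to 8.92 ± 0.08 (fibrillar; SD, n = 3), each group overlapping the next.

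Its change was 0.09 (SE 0.10, 95% interval −0.12 to 0.29) with oligomers, 0.20 (SE 0.10, interval −0.01 to 0.40, limma adjusted p = 0.374) with fibrils and 0.25 (SE 0.10, interval 0.04 to 0.45, adjusted p = 0.110) between the controls, where median centring gave 0.12 (adjusted p = 0.534). In order of falling signal, the other 4 kept probe sets had changes with fibrils of 0.17, −0.03, 0.08 and −0.09, and between the controls of 0.27, 0.45, −0.06 and 0.16, and 0 of them passed. Among the 3 brightest the correlation over the 12 arrays was 0.65 to 0.75, whereas the next in signal correlated with these at −0.34 to −0.01 and the dimmest kept at 0.13 to 0.36. The probe set left had a mean of 2.63, under the filter. Its oligomeric signals of 3.55, 3.63 and 3.38 lay above the 6 h controls at 3.32, 2.26 and 1.09, a difference that did not pass when all probe sets were tested without a filter.

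CHRM2, which inhibits adenylyl cyclase, had a mean of 2.55 at its only probe set, with signals from 0.53 to 3.32. ACHE had 3 probe sets with means of 2.60, 1.25 and 0.75 and a range over all arrays from −1.38 to 4.40. At the dimmest of these the fibrillar arrays read −1.38, −0.45 and 0.10 and their controls 3.11, 3.04 and −0.96, so the groups overlapped. Without a filter, over 41091 probe sets, 0 of the 7 dim probe sets of the members were called by limma in any comparison, and 0 had an unadjusted p under 0.05. No change was detectable for CHRNB4, CHRM2 and ACHE at these signals.

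The genes whose log2 signal over the 12 arrays ran most like that of CHRNA3 were CPED1 (Pearson r = 0.98) and TSC22D1 (0.96), both also higher in the 24 h controls, by 0.97 and 0.44. For CHRNA5 they were CCDC127 and MRFAP1L1 (r = 0.92 each), for CHRNB2 HFM1 (0.93) and BECN1 (0.89), and for CHRM3 YIPF4 (0.93) and MACIR (0.91). Within groups, after each group's mean was taken off, r was 0.76 and 0.64 for the CHRNA3 pair and 0.93 and 0.91 for the CHRNA5 pair. These are the highest of 11773 genes for each member, and were picked for being so. Among the members the highest correlation was that of CHRNA3 with CHRM3 (0.77), and CHRNA5 with CHRNA3 gave 0.47.

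The rest of the cholinergic system was read from 9 lists. Of all genes 1.19% were called with fibrils and 11.7% between the controls, and every count below is to be read beside these shares. With oligomers 0 genes of these lists were called, as were 0 of all genes. Of 12 other nicotinic subunit genes and relatives, 10 had a probe set of 1 symbol, 4 of which were tested and 6 lay under the filter. With fibrils 0 of 4 were called, with a median change of 0.32, beside −0.00053 over all genes. In the 24 h controls CHRNA9, CHRNA10 and CHRNA2 had means of 3.51, 3.48 and 3.77, under the filter of 3.78. These genes entered the test through other groups, so the median is not read as a shift of the list. The smallest p-values were those of CHRNA9, a subunit best known from the inner ear (0.63, SE 0.32, limma adjusted p = 0.385), and CHRNB1, the β subunit of muscle (−0.29, SE 0.25, adjusted p = 0.675). Between the controls CHRNA9 fell by 1.47 (SE 0.32, adjusted p = 0.00659), from 4.91, 5.52 and 4.51 at 6 h to 3.61, 3.52 and 3.39 at 24 h, where its mean of 3.51 was under the filter. The gene entered the test through the other groups, and the size of a difference from so low a signal depends on the scale: on log2 of the signal plus 16 it was −0.81. After adjustment for the 3′ to 5′ gauges the adjusted p was 0.0591, while the change ran from −1.71 to −0.81 over the 12 other settings. CHRM1, CHRM4 and CHRM5, the remaining muscarinic genes, had means of 0.76, 2.06 and 1.80, and 0 of 3 were tested.

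Nicotinic channels need helper proteins to assemble. Of 10 genes of assembly and modulation 5 were tested, and with fibrils 0 were called, beside 1.19% of all genes, with a median of −0.15. The smallest p was that of TMEM35A, also called NACHO, a chaperone of neuronal nicotinic receptors including CHRNA7 channels. Its signals were 8.09, 8.02 and 8.35 in the 24 h controls and 7.87, 7.50 and 7.58 with fibrils, against 7.83, 7.93 and 7.74 in the 6 h controls and 7.57, 7.75 and 7.86 with oligomers. All 3 fibrillar arrays lay below their controls, which was so in either direction for 19.7% of genes.

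The TMEM35A change with fibrils was −0.50 (SE 0.12, 95% interval −0.75 to −0.25), with an adjusted p of 0.0505 from limma that just missed the threshold. It did not pass in 10 of 13 other settings, with adjusted p-values from 0.0522 with a robust prior variance to 0.168 with a constant one, among them median centring (−0.43, adjusted p = 0.15). It passed in the other 3, array weights (0.0268), a filter at the 75th percentile (0.0438) and log2 of the signal plus 16 (0.0473). It also passed without fibrillar replicate 1 (−0.61, adjusted p = 0.0278), and of the remaining leave-one-out fits the highest adjusted p was 0.222. The next smallest p was that of LYPD6, a modulator of the Ly6 family (−0.21, adjusted p = 0.639), whose other 2 probe sets had changes of 0.03 and 0.06. Between the controls UBXN2A, which regulates the turnover of CHRNA3 subunits, rose by 0.41 (SE 0.09, adjusted p = 0.00676), the only 1 of the 5 called, beside 11.7% of all genes. Its other probe set had 0.07, the mean of both 0.24 (still called), and the call was lost with median centring (0.28, adjusted p = 0.0502).

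Of 8 genes of acetylcholine synthesis, transport and breakdown 5 were tested, and CHAT, the synthesizing enzyme, SLC5A7, the choline transporter, and COLQ lay under the filter with means of 1.90, 0.91 and 2.66. With fibrils 0 of 5 were called, beside 1.19% of all genes, with a median of −0.28. One of the 5, SLC18A3, the vesicular transporter, had a mean of 3.67 in the 24 h controls, under the filter, and entered the test through other groups. PRIMA1, the membrane anchor of acetylcholinesterase, had a change of −0.39 (SE 0.14, limma adjusted p = 0.192), and BCHE, butyrylcholinesterase, which also splits acetylcholine, of −0.28 (SE 0.11, adjusted p = 0.249). BCHE rose between the controls by 0.64 (SE 0.11, adjusted p = 0.00171), from 6.88, 6.99 and 7.17 at 6 h to 7.62, 7.56 and 7.77 at 24 h. It was the only 1 of the 5 called, beside 11.7% of all genes. Its fibrillar signals of 7.41, 7.24 and 7.45 lay below the 24 h controls and above all 6 h arrays. Fibrillar arrays that did not overlap their controls, in either direction, were found for 19.7% of all genes.

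Among 16 genes of muscarinic signalling through G proteins, phospholipase C and calcium release, 15 were tested. With fibrils 0 were called, beside 1.19% of all genes, with a median of −0.02. GNAQ, the G protein α subunit that CHRM3 activates, had the smallest p there (−0.21, SE 0.08, limma adjusted p = 0.241), with all 4 of its other probe sets in the same direction, and PRKCA, a protein kinase C, came next (0.17, adjusted p = 0.429; −0.15 at its other probe set). Between the controls 1 of the 15 rose and 2 fell, beside 3.76% and 7.92% of all genes: PLCB4, a phospholipase C, by 0.52 (SE 0.09, adjusted p = 0.00223), and PLCB1 and the G protein β subunit gene GNB1, which fell by 0.43 (SE 0.09, adjusted p = 0.00591) and 0.49 (SE 0.07, adjusted p = 0.000509). After adjustment for the 3′ to 5′ gauges the calls of PLCB4 (adjusted p = 0.0784) and PLCB1 (0.0933) were lost. Over all 13 other settings, this one included, the change of PLCB4 ran from 0.39 to 0.54 and that of PLCB1 from −0.56 to −0.40.

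Of 10 genes of receptor desensitization 9 were tested and 0 were called with fibrils, beside 1.19% of all genes, with a median of −0.02. RGS2, which speeds the turn-off of Gq, had a change of 0.23 (SE 0.09, limma adjusted p = 0.225), and RGS4 of −0.20 (adjusted p = 0.581). The other 2 probe sets of RGS4 had larger changes, of −0.55 and −0.47 with fibrils and of 0.42 and 0.89 between the controls. There the brightest had 0.13. The receptor kinase genes GRK3 and GRK5 rose between the controls, by 0.35 (SE 0.07, adjusted p = 0.00296) and 0.47 (SE 0.15, adjusted p = 0.049). They were the only called genes of the 9 there, beside 11.7% of all genes. With median centring both calls were lost (0.22, adjusted p = 0.119, and 0.34, adjusted p = 0.162). GRK5 was called in 7 of 13 other settings, with changes from 0.34 to 0.63 over the 13, and its adjusted p was 0.125 after adjustment for the 3′ to 5′ gauges. It also lost its call without control 6 h replicate 2 (adjusted p = 0.179) or 3 (0.144) and without control 24 h replicate 1 (0.191), 2 (0.0504) or 3 (0.0987). Of 7 potassium channel genes under muscarinic control 2 were tested, KCNQ5 and KCNQ3, with changes of 0.11 and 0.09 with fibrils, and 0 were called there or between the controls.

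The neighbours of the CHRNA5-CHRNA3-CHRNB4 cluster gave 4 tested genes of 6, with 0 called in the fibril or the control comparison, CTSH (0.20) and MORF4L1 (0.07) having the smallest p with fibrils and the list a median of 0.01. Transcription factors reported on the promoters of the cluster gave 5 tested of 8, with a median of 0.14 with fibrils. JUN, an AP-1 subunit, rose with fibrils by 1.13 (SE 0.25, limma adjusted p = 0.0403), from 7.49, 7.10 and 7.33 to 9.29, 7.74 and 8.29. Of the 13 settings other than leave-one-out it passed in 7. After adjustment for the 3′ to 5′ gauges the change was 0.70 (adjusted p = 0.17), and it did not pass with no filter (0.0507), with the mean of its probe sets (0.0626), with a robust (0.0897) or constant (0.182) prior variance or in a fit of the 24 h arrays alone (0.107). In the fibrillar arrays, replicates 1 to 3, the GAPDH gauge read 0.81, 0.49 and 0.64 and the ACTB gauge 3.06, 2.48 and 2.78, and JUN was highest in replicate 1, where both were highest. Without fibrillar replicate 1 the change was 0.71, and it no longer passed on leaving out fibrillar replicate 3 (adjusted p = 0.118) or any of the 24 h controls (0.112, 0.107 and 0.124 for replicates 1, 2 and 3). Its other probe sets had 0.53 and 1.34. PHOX2A, a sympathetic determinant that acts on the CHRNA3 promoter, fell between the controls by 0.44 (SE 0.08, adjusted p = 0.00252), while CHRNA3 rose at its brightest probe set. It was the only 1 of the 5 called there, beside 11.7% of all genes. All 5 had negative changes in that comparison, from −0.44 to −0.14, among them SP1 with −0.32 (adjusted p = 0.053) and SP3 with −0.14 (0.178). Over the 13 other settings the PHOX2A change ran from −0.57 to −0.28, with an adjusted p of 0.166 after adjustment for the 3′ to 5′ gauges.

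**Figure D5:**
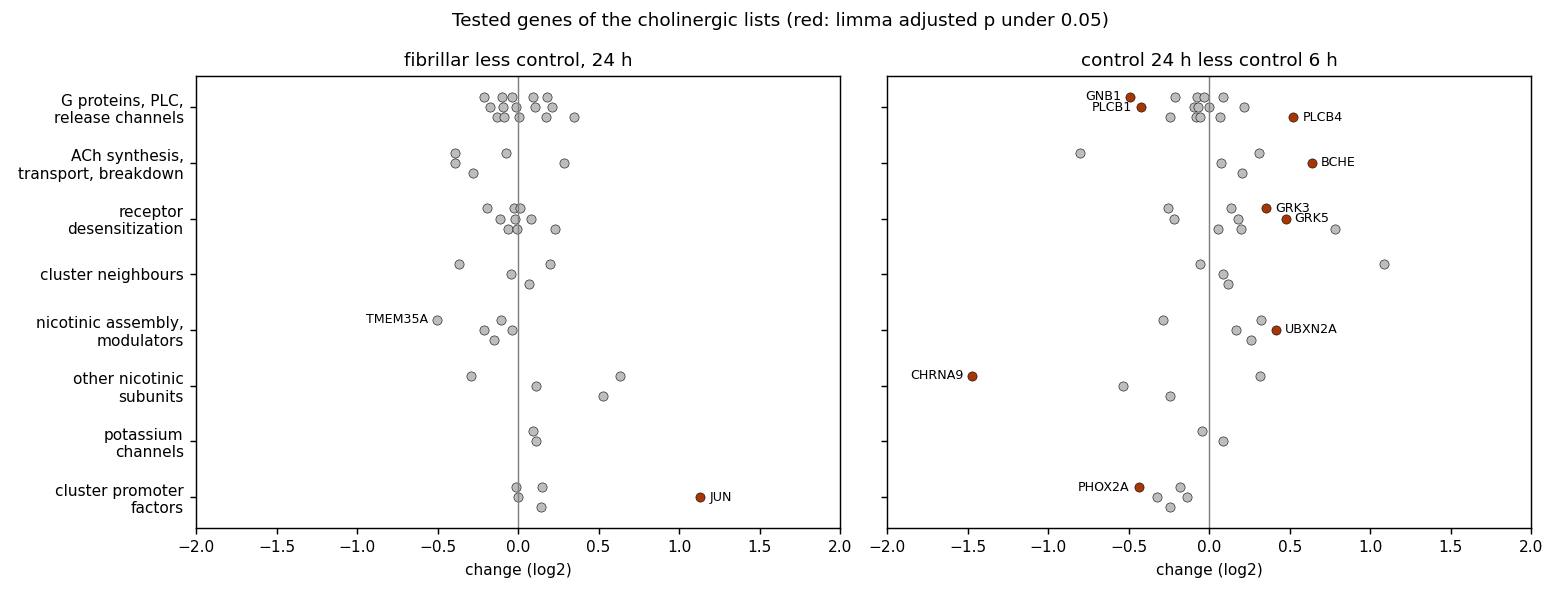
Change on the log2 scale (x axis) of each tested list gene, by list (y axis), for fibrillar less control at 24 h and for 24 h control less 6 h control; red points have a limma adjusted p under 0.05. JUN is the only called gene with fibrils, TMEM35A lies at −0.50 with an adjusted p of 0.0505, and 9 of the 49 genes are called between the controls, where 11.7% of all genes were.

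Of the 9 list genes called between the controls, BCHE and CHRNA9 are named by the rule on fibrils, and UBXN2A, PLCB4, PLCB1, GNB1, GRK3, GRK5 and PHOX2A were named after their values were seen. Of 12 markers of sympathetic neuroblasts 9 lay above the filter, with GATA3 at 12.1, ISL1 at 11.02 and DBH, which makes noradrenaline, at 10.1, while TH, the first enzyme of that pathway, had 0.73. Of the 3 cholinergic neuron markers only SLC18A3, the vesicular transporter, lay above it (4.19), though its mean in the 24 h controls was 3.67, under the filter. Skeletal muscle markers had 0 of 5 above the filter, glial markers 1 of 5, blood or endothelial markers 2 of 4, and fibroblast or mesenchymal markers 4 of 5, among them FN1 and LUM at 9.50 and 9.51.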

How the data were processed

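Expression was measured in 12 SH-SY5Y samples on Affymetrix 3′ arrays. The authors deposited 1 log2 signal per probe set and array; the submitters' processing notes name MAS5, without a version or detection calls. In the linear signal the trimmed mean, from 2% to 98%, was 100.002 on every array, so the arrays had been scaled to a common target, and no further normalization was applied. Array medians lay between log2 3.89 and 4.12. Precision is set by the number of arrays, with a standard error of 0.13 for the median gene.

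Control probe sets (62) were left out, and the probe sets with 1 symbol (41091), several (1801) or none (11721) were told apart by the GEO platform annotation. The brightest kept probe set stood for each gene. A group-means model of all 12 arrays was fitted in R 4.3.3 by limma 3.58.1, with a trend of the prior variance on the mean signal and Benjamini-Hochberg adjustment over all genes. The procedure was tested on simulated data with the fibrillar arrays shifted in some genes. Of 100 genes changed 1.5-fold it recovered 54%, and of 100 changed 2-fold 81%, with 4 false calls among 139. Changes of such sizes can therefore be missed. Intervals are 95% intervals of that model. Likeness was Pearson's r over the 12 arrays, the 2 highest genes per member.

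Named were all 8 members and, from each list, up to 2 genes in each direction called with fibrils, or the 2 with the smallest p where none was. The members and lists were chosen with earlier results of these data known. Replicate numbers do not mark a shared culture or day in the labels and were used as pairs only in an alternative. The alternatives were another scaling, filter, choice of probe sets, prior variance, array weights, the compared groups alone, a replicate block, a covariate made of the 3′ to 5′ gauges and each array left out. The array files name no genome build, so only promoter windows carry coordinates.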

Additional observations from a re-analysis of the deposited data

Results flagged for a closer look

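In the brighter x probe set of CHRNA3, all 3 oligomeric arrays lay above the mean of the 6 h controls and all 3 fibrillar arrays below the mean of the 24 h controls. The 10 kept probe sets of the members were searched for such opposite responses, and this was the only one found. Its p-values therefore belong to a probe set picked for the pattern, whose share among all probe sets was not counted. In both comparisons its treated and control arrays overlapped. The fibrillar response less the oligomeric response was −0.67 on the log2 scale. By limma over all kept probe sets this difference had an unadjusted p of 0.00127 and an adjusted p of 0.228, so it did not pass, and the brightest CHRNA3 probe set had −0.06. Form and hours of the peptide cannot be told apart here.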

How the results depend on the processing

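No member was called with oligomers, with fibrils or in the difference between them under any alternative run. Between the controls 1 member, CHRNA3, was called in the main analysis, 0 with the mean of probe sets, and 1 to 2 when single arrays were left out. Low signals limited CHRNB4, CHRM2 and ACHE.

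Directions of members that did not pass turned in these settings. The CHRNA3 change with fibrils was −0.0052 after quantile normalization, −0.23 with the mean of probe sets and −0.37 at the probe set with the smallest p, and −0.013 to 0.063 with arrays left out. Its response difference was 0.083 with median centring. The CHRNA5 change with oligomers was −0.010 with median centring, −0.061 with the 3′ to 5′ covariate and −0.060 to 0.21 with arrays left out. With that covariate CHRNA5 also had 0.10 for the response difference, 0.036 with fibrils and −0.011 between the controls, and CHRNB2 −0.030 with fibrils. The CHRM3 response difference was −0.037 with the mean of probe sets and −0.19 at the probe set with the smallest p. With arrays left out CHRNA5 with fibrils ran from −0.29 to 0.033, CHRNB2 from −0.13 to 0.97 with oligomers, −0.11 to 0.37 with fibrils and −0.87 to 0.23 for the response difference.

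Over all genes, 140 were called with fibrils, against 79 with no filter, 62 by the probe sets' mean, 7 with a constant prior variance, 268 with array weights, 35 with the groups alone, 39 with the covariate and 14 to 186 with arrays left out: 90 and 21 without fibrillar replicates 1 and 3, and 14, 64 and 28 without control 24 h replicates 1, 2 and 3. Between the controls it was 1375, against 467 with the covariate, 719 without control 6 h replicate 2, and 833 and 737 without control 24 h replicates 1 and 3. For the response difference it was 5, against 0 to 64. Median centring lowered the share of calls that were higher at 24 h between the controls from 32.2% to 7.33%, raised it with fibrils from 67.1% to 86.1%, and moved that of the response difference from 20% to 92.3%.

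Same-numbered arrays deviated from their group means with correlations of −0.02 to 0.09. Of 6 arrays 4 correlated best with their own number, among them every fibrillar array, which does not decide whether the numbers pair samples. The labels name no pairing, so the numbers were used as pairs only in an alternative. With that replicate block the CHRNA3 control difference was 0.39 (limma adjusted p = 0.00091), and the block changed no call of a member. Over all genes it gave 1570 calls between the controls, against 1375, and 184 with fibrils, against 140.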
